A study of Mus musculus with 24 samples.

Results

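The genes described here are 9 integrin subunits, Itga3, Itga4, Itga5, Itga6, Itga7, Itga9, Itgav, Itgb1 and Itgb5, together with Itgb1bp2, which encodes melusin, a protein of striated muscle that binds the cytoplasmic tail of the beta 1 subunit and is not itself a subunit. All probe sets that the array's annotation assigns to these 10 symbols were taken, 34 of the 45101 in the table. RNA came from C2C12 cells, a line of mouse skeletal myoblasts, which were grown in medium with 10% fetal bovine serum and differentiated into myotubes in medium with reduced serum. The labels put the reduced serum at 2%, which is not the value in the study's methods. Arrays were made at 8 time points with 3 arrays each: Day -1 (myoblasts at 50% confluency), Day 0 (90% confluency, before the reduced serum), Day 0.25 (6 hours after induction), and Days 1, 2, 3, 4 and 5 of differentiation. No drug, allele or transgene distinguishes the groups, all of which are 1 cell line, and nothing in the labels says that the replicates were separate cultures, so p-values measure the spread between these arrays. Cell density and medium change along with time, and their effects cannot be told apart from differentiation.

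Integrins are cell surface receptors built from 1 alpha and 1 beta subunit, which hold a cell to its extracellular matrix and link that matrix to the actin skeleton. The alpha subunit largely sets which matrix protein is bound, and the beta 1 subunit pairs with most of the alpha subunits found in muscle. In skeletal muscle the alpha 7 beta 1 receptor anchors the fibre to laminin of the basement membrane, and integrins of myoblasts take part in migration and fusion.

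Values are linear intensities in arbitrary units, scaled by the authors to a trimmed mean near 150 on each array, where the median probe set read between 3.63 and 3.87. A level is the mean of 3 arrays with its SD, and levels are said to overlap where their ranges of 1 SD to either side do. Intensities of different probe sets depend on their probes, so no level is set against that of another gene. A probe set was tested if its level reached 100 at 1 or more time points, which 13735 did, among them 17 of the 34. These 17 represent 9 of the 10 genes. Changes were tested on the log2 scale with limma, in 1 fit to the 24 arrays, and are given with their standard error. A change is called, or said to pass, where its p was below 0.05 after adjustment over the 13735 probe sets. Each gene is followed in its probe set of highest mean intensity, and the other tested probe sets are described where they differ.

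The 8 skeletal muscle markers were all measured, and their summed intensity went from between 3398 and 3760.3 on Day -1 to between 39298 and 45690 on Day 5. Of the 6 fibroblast markers, 4 were measured and passed as higher on Day 5, with sums of 5022 to 6417 on Day -1 and 12834 to 15657 on Day 5, while Thy1 and Tcf21 did not reach a level of 100. Of 6 smooth muscle markers, 4 were measured and 3 were higher, with sums of 1933 to 2729 and of 9082 to 9637, while Myh11 and Cnn1 did not reach that level. All 6 markers each of endothelium, leukocytes and epithelium were below it. The part of these cell type markers in the results was not tested.

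Over the 8 time points all 17 tested probe sets of these genes varied by the F test, with a largest adjusted p of 0.0362. This share stood beside 88.8% of all 13735 tested probe sets, so varying over the time course does not set these genes apart. The intervals in which changes were called differed from gene to gene, and differences between genes were not tested. Between Day -1 and Day 5, 12 of the 17 rose and none fell, beside 31.9% of all tested probe sets that rose and 38.4% that fell. The 12 belong to 7 genes, Itga4, Itga5, Itga6, Itga7, Itgb1, Itgb5 and Itgb1bp2. The Itga4 probe set was under the level set for testing on both of these days. Counted by 1 probe set a gene, 6 of 9 rose, since the followed probe set of Itgb1 did not pass. The median log2 change of the 8 followed subunit probe sets, with Itga4 among them, was 0.73, against -0.08 for all tested probe sets. The 8 are 1 probe set a gene, while the 13735 include several for some genes. Fewer cells that carry a transcript and less of it in each cell cannot be told apart in these whole-culture samples.

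**Figure D1:**
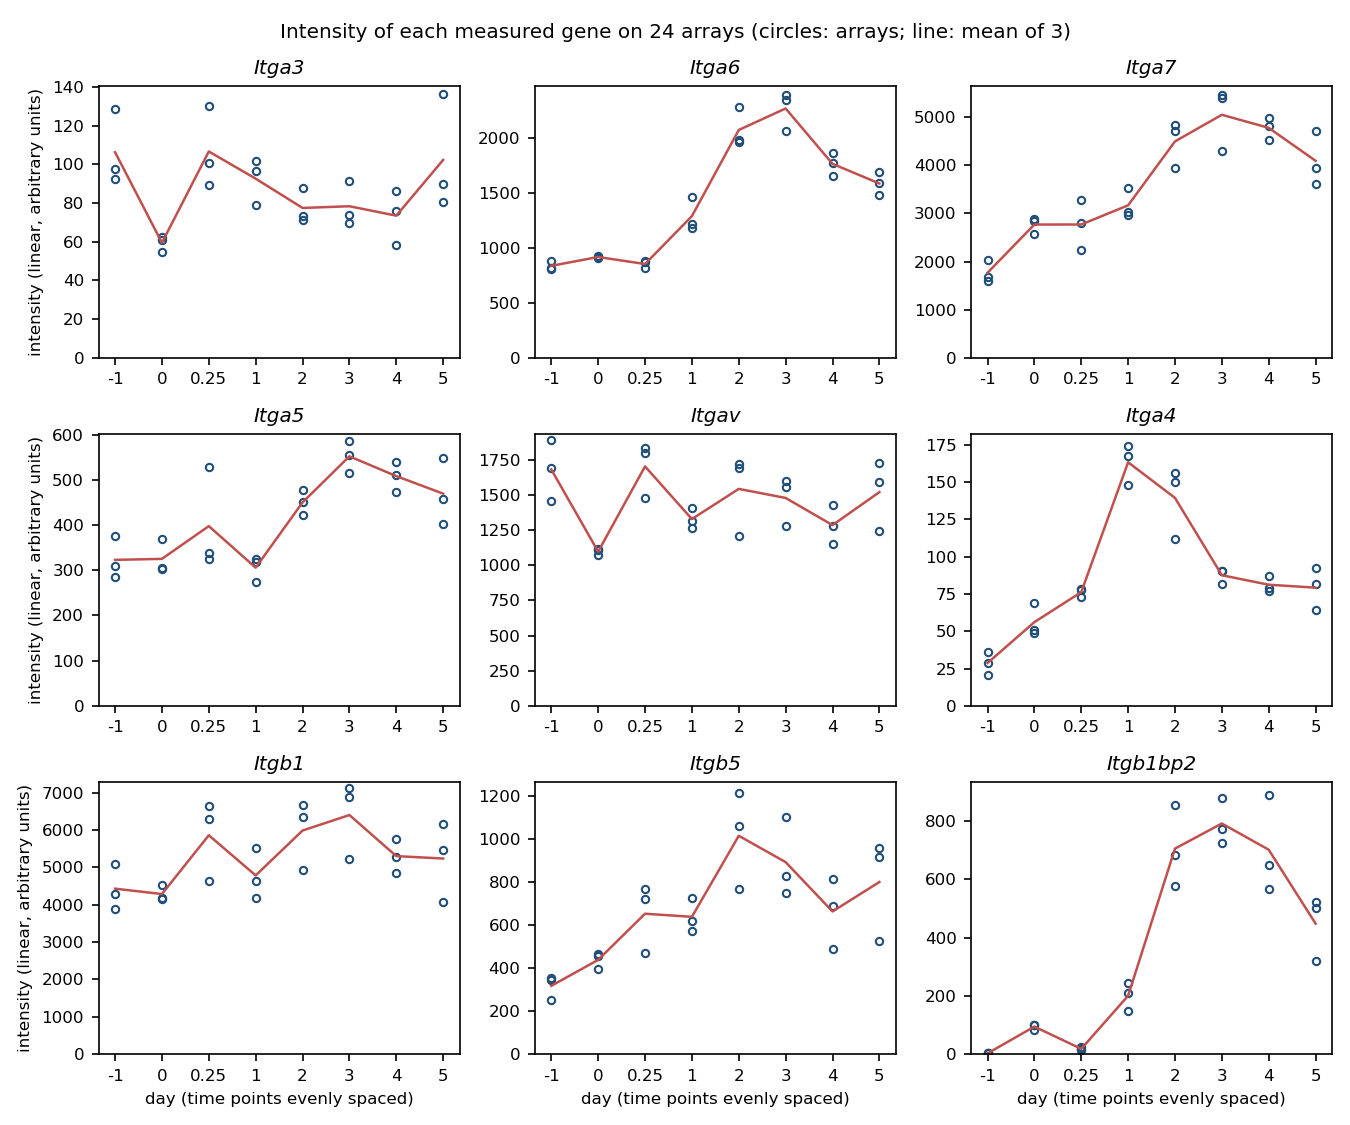
Linear intensity (vertical axis, arbitrary units, starting at 0) of the followed probe set of each of 9 genes at 8 time points (horizontal axis, days, drawn at even spacing). Circles are single arrays and the line joins the means of 3, and Itga7, Itga6 and Itgb1bp2 have their highest means on Day 3, Itga4 on Day 1, and Itga3 and Itgav on Day 0.25.

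Promoter sequence is shown for the 4 genes whose window in the RefSeq table (build GRCm38.p6) ends at the outermost annotated start of the gene, since Itga4, Itga5 and Itgb5 were higher on Day 5 than on Day -1 in their followed probe sets and Itgb1 was not called there. Each run is the 250 bases before the start, written 5′ to 3′ on the strand of the gene, with every match to CANNTG, the E-box bound by myogenic factors such as MyoD and myogenin, in capitals.
Itga4, chr2:79255176-79255425, plus strand: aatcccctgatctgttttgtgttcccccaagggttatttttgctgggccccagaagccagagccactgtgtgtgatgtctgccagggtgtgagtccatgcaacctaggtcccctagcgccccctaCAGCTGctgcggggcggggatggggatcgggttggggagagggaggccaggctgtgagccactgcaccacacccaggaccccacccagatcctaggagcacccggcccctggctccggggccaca
Itga5, chr15:103366792-103367041, minus strand: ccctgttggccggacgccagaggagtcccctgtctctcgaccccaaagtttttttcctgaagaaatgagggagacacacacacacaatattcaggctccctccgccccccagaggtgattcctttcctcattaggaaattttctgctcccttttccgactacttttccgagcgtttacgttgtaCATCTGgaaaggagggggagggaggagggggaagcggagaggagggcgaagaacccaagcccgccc
Itgb5, chr16:33829415-33829664, plus strand: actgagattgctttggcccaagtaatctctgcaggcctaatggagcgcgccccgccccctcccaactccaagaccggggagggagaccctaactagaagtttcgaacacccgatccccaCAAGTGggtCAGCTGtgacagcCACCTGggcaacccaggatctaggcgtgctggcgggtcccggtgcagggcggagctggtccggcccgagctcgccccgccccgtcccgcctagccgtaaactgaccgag
Itgb1, chr8:128685404-128685653, plus strand: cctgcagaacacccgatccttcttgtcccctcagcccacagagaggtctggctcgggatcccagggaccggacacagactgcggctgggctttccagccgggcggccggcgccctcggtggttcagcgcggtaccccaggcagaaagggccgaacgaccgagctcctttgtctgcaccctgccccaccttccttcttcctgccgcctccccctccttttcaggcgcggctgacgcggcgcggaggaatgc

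The Itgb5 window held 3 matches to CANNTG, which began 131, 122 and 109 bases before the start, and the middle of these was CAGCTG. Itga4 had 1 match, a CAGCTG 125 bases before the start, and Itga5 had 1 match, 66 bases before it. No match was found in the Itgb1 window. CANNTG reads the same on both strands, and 66.2% of all 32851 windows of this length held at least 1 match, with 12.2% holding 3 or more. CAGCTG, which is contained in CANNTG, was found in 13% of the windows. CATTCC, the MCAT element bound by TEAD factors, was searched on both strands and matched only Itgb1 among these genes, 7 bases before the start on the opposite strand, beside 12.6% of all windows. Windows were present for 7 of the 10 genes. Those of Itga3, Itga9 and Itgav do not end at the outermost annotated start, and their sequences are not shown. The Itga9 window held 3 matches to CANNTG, 1 of them a CAGCTG 28 bases before its start, though Itga9 was not tested for change. Each Itga3 window held 1 match, and the Itgav window held none. In all, 5 of the 7 genes with a window had a match. A match is a description of letters and not of binding.

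Itga7, Itga6 and Itga3 are subunits of laminin receptors. Over the 8 means of log2 intensity, Itga6 and Itga7 had r = 0.923, while Itga3 had r = -0.294 with Itga6 and -0.397 with Itga7. Differences between the courses of these genes were not tested. Itga7, the alpha chain of the main laminin receptor of muscle fibres, rose in 2 steps in its single probe set, 1418393_a_at. Its arrays read 1669, 2042 and 1589 on Day -1, 2579, 2848 and 2884 on Day 0 and 2792, 2249 and 3272 on Day 0.25. The Day 0 arrays all lay above those of Day -1, an increase of 1.58-fold (log2 0.66 ± 0.14, adjusted p = 0.000874). From Day 0 to Day 0.25 the change was -0.01 ± 0.14 on the log2 scale, with an adjusted p of 0.941. The arrays then read 2964, 3025 and 3522 on Day 1 and 4849, 3944 and 4707 on Day 2. These groups did not overlap either, and the second step was 1.42-fold (log2 0.50 ± 0.14, adjusted p = 0.00699). This call was lost when replicate 1 of every time point was left out (log2 0.40, adjusted p = 0.149), but not when any single array was. The level was 5055 ± 652 on Day 3 and 4097 ± 557 on Day 5, and in order of level Days 3, 4, 2 and 5 each overlapped the next. The net rise to Day 5 was 2.32-fold (log2 1.21 ± 0.14, adjusted p = 2.01e-07).

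Itga6, whose product pairs with beta 1 or beta 4 as a laminin receptor of many epithelia and of myoblasts, had no called change before induction and rose later. In probe set 1422445_at its levels were 837 ± 38.9 on Day -1, 917 ± 10.5 on Day 0 and 853 ± 35.3 on Day 0.25. Neither change between these neighbours passed, with adjusted p-values of 0.249 and 0.365, though the Day 0 arrays all lay above those of Day -1 and Day 0.25. On Day 1 its arrays read 1185, 1222 and 1462, and on Day 2 2282, 1979 and 1963. Every array of Day 1 lay above every one of Day 0.25 and below every one of Day 2. The steps were 1.51-fold (log2 0.59 ± 0.09, adjusted p = 0.000123) and 1.61-fold (log2 0.69 ± 0.09, adjusted p = 1.05e-05). Day 3 held the highest level, 2271 ± 179, which overlapped that of Day 2. From Day 3 to Day 4 all 3 arrays were lower, at 1658, 1777 and 1864 after 2066, 2351 and 2396, but the change of -0.36 ± 0.09 had an adjusted p of 0.0626. Without Day 3 replicate 1, the lowest of its day, the same change was -0.43 with an adjusted p of 0.0495. Day 5 remained 1.90-fold above Day -1 (log2 0.92 ± 0.09, adjusted p = 2.60e-08). The second probe set of Itga6, 1422444_at, had a single called step, from Day 1 to Day 2 (2.07-fold, adjusted p = 3.90e-05). Its change from Day 0.25 to Day 1 was 0.34 ± 0.16, with an adjusted p of 0.125.

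Itga3, the alpha chain of a laminin receptor best known from epithelia, was dim throughout, near or below the level of 100 set for testing. The arrays of probe set 1455158_at read 92.6, 129 and 97.5 on Day -1, 54.9, 62.7 and 60.8 on Day 0 and 89.2, 100.5 and 130.3 on Day 0.25. Day 0 was thus low on all 3 arrays. Intensity fell 1.77-fold into Day 0 (log2 -0.83 ± 0.19, adjusted p = 0.00187) and rose 1.77-fold out of it (log2 0.83 ± 0.19, adjusted p = 0.00213). The rise was not called without replicate 3 of every time point (adjusted p = 0.0696). No later interval passed. On Day 5 the arrays spread from 80.6 to 136, and the change from Day -1 was -0.08 ± 0.19, with a 95% interval of -0.48 to 0.33. The other 2 probe sets of Itga3 were not tested, since their highest levels were 52.3 and 72.0, both on Day -1. Both also had lower levels on Day 0, at 35.4 ± 2.72 after 52.3 ± 1.86 and 42.7 ± 5.15 after 72.0 ± 13.7. Their means stayed below that of Day -1 at all later time points, and they read 40.5 ± 2.67 and 59.4 ± 8.61 on Day 0.25, and 25.9 ± 10.7 and 43.9 ± 15.4 on Day 5.

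Itga5 and Itgav encode the alpha chains of receptors for fibronectin and vitronectin, which recognise the RGD motif of their ligands. Itga5 had no called change up to Day 1 and was higher from Day 2. The arrays of probe set 1423267_s_at read 284, 375 and 310.0 on Day -1 and 324, 275 and 318 on Day 1. On Day 2 they read 478, 422 and 450.1, and on Day 3 555, 586 and 516. No Day 2 array overlapped Day 1, and the rise was 1.47-fold (log2 0.56 ± 0.16, adjusted p = 0.00708). Day 3 arrays again lay above all of Day 2, but that change, 0.29 ± 0.16, did not pass (adjusted p = 0.306). On Day 0.25 the first 2 arrays read 326 and 338 and the third 529.5, so this day had the widest spread of the gene. From Day -1 to Day 5 the rise was 1.45-fold (log2 0.54 ± 0.16, adjusted p = 0.00476). Both calls were lost without replicate 1 of every time point, with adjusted p-values of 0.0722 and 0.172. The second Itga5 probe set, 1423268_at, changed by 0.45 ± 0.20 from Day 1 to Day 2 and did not pass (adjusted p = 0.0794). Its net change of 0.48 ± 0.20 passed at an adjusted p of 0.0447, with arrays that overlapped, and was lost without any 1 of the Day -1 arrays or without Day 5 replicate 1 or 2 (adjusted p between 0.0540 and 0.175).

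Itgav had a dip on Day 0 like that of Itga3. The arrays of probe set 1452784_at read 1459, 1891 and 1693 on Day -1, 1072, 1106 and 1112 on Day 0 and 1800.4, 1475 and 1833 on Day 0.25. Day 0 was below both of its neighbours on every array and had the narrowest spread. The fall was 1.52-fold (log2 -0.61 ± 0.15, adjusted p = 0.00240) and the following rise 1.55-fold (log2 0.63 ± 0.15, adjusted p = 0.00219), which was not called without replicate 1 of every time point (adjusted p = 0.0649). The change from Day 0.25 to Day 1 was -0.35 ± 0.15 (adjusted p = 0.0804), and it passed when Day 0.25 replicate 2, the lowest of its day, was left out (log2 -0.45, adjusted p = 0.0384). After Day 1 the levels lay between 1285 and 1543 and no interval passed. Day 5 differed from Day -1 by -0.15 ± 0.15, with a 95% interval of -0.46 to 0.16. The second Itgav probe set, 1421198_at, also rose from Day 0 to Day 0.25 (1.87-fold, adjusted p = 0.0208). That call was lost without Day 0 replicate 3 (adjusted p = 0.0700), without Day 0.25 replicate 1 (0.102) or without Day 0.25 replicate 3 (0.0994). Its fall into Day 0, -0.59 ± 0.30, had an adjusted p of 0.114. From Day -1 to Day 5 it changed by -0.66 ± 0.30, which just missed the threshold (95% interval -1.29 to -0.04, adjusted p = 0.0554).

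Itga4, whose product pairs with beta 1 to bind VCAM-1 and fibronectin, had its highest levels on Days 1 and 2, which overlapped, and was lower on Day 3. The arrays of probe set 1436037_at read 20.7, 36.4 and 29.0 on Day -1, 68.6, 51.1 and 48.6 on Day 0, 72.8, 78.0 and 77.8 on Day 0.25 and 148, 167 and 174 on Day 1. No array overlapped between any of these neighbours. The rise into Day 0 was 1.98-fold (log2 0.99 ± 0.18, adjusted p = 0.000170), from readings below 50. With values below 50 raised to 50 it was 0.16 on the log2 scale and was not called (adjusted p = 0.364). The larger rise was 2.14-fold into Day 1 (log2 1.10 ± 0.18, adjusted p = 0.000163), and it was called under all 15 alternatives run for it. Day 2 read 156, 112 and 149.7, and its change from Day 1 did not pass (log2 -0.24 ± 0.18, adjusted p = 0.281), with arrays that overlapped. Day 3 read 81.8, 90.4 and 90.2, a fall of 1.58-fold from Day 2 (log2 -0.66 ± 0.18, adjusted p = 0.0338). Days 3, 4, 5 and 0.25, with levels of 87.5, 81.1, 79.2 and 76.2, each overlapped the next in that order. Day 5 was 2.80-fold above Day -1 (log2 1.49 ± 0.18, adjusted p = 3.09e-07). With values below 50 raised to 50 this change was 0.65 on the log2 scale (adjusted p = 0.000336). The probe set reached the level set for testing only on Days 1 and 2. Its net change and its rises into Days 0 and 0.25 compare levels under it, so their sizes are uncertain.

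Of these Itga4 calls, those from Day 0 to Day 0.25 (log2 0.46 ± 0.18, adjusted p = 0.0432) and from Day 2 to Day 3 were close to the threshold. Each was lost when any 1 of several arrays was left out. The first was lost without Day 0 replicate 2 or 3 or without any 1 of the Day 0.25 arrays (adjusted p between 0.0722 and 0.163). The second was lost without Day 2 replicate 1 or 3 or without any 1 of the Day 3 arrays (adjusted p between 0.0799 and 0.139). The other 4 probe sets of Itga4 were not tested, and the brightest of them also had its highest level on Day 1, at 60.5 ± 21.6. On Day 5 it read 11.8 ± 1.26, after 12.1 ± 1.31 on Day -1, so it did not show the net difference of the followed probe set.

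Itga9, whose product pairs with beta 1 to bind tenascin-C and osteopontin, was not tested in any of its 3 probe sets. Its followed probe set read between 8.57 and 12.1 on all 24 arrays, and no reading of its other 2 probe sets was above that. Its levels of neighbouring rank overlapped at every step.

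**Figure D2:**
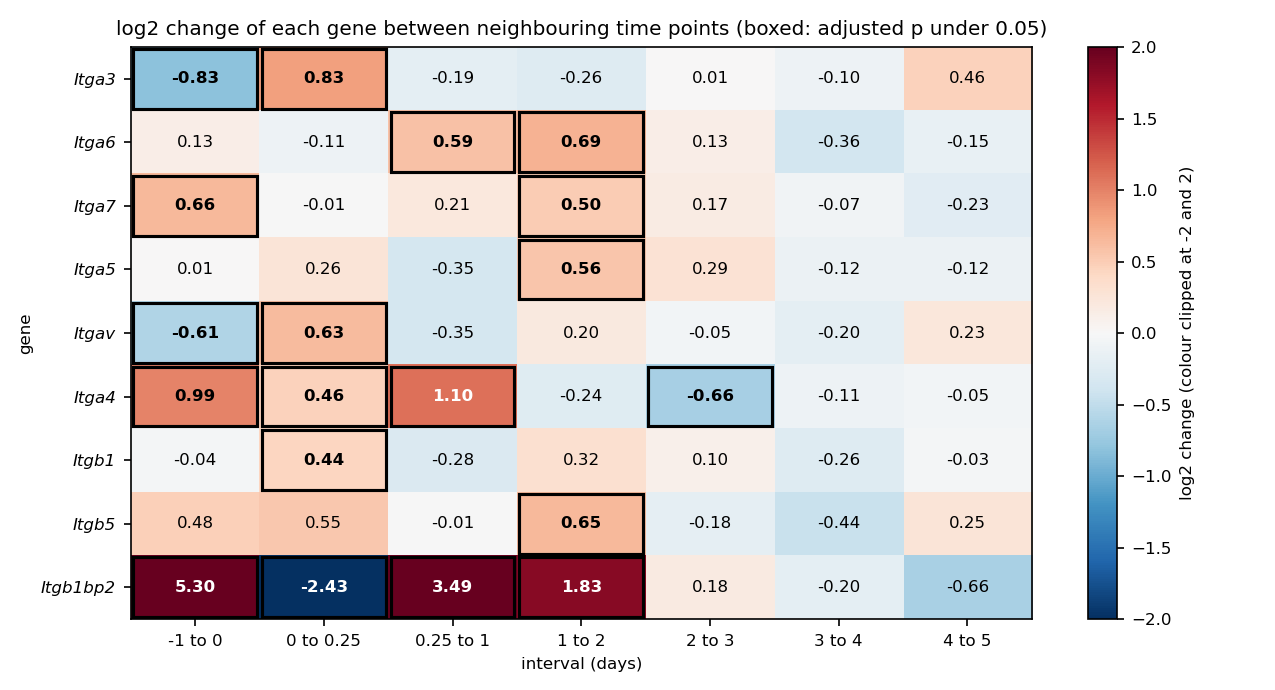
log2 change of the followed probe set of 9 genes (rows) over the 7 intervals between neighbouring time points (columns, days), with the value in each cell and colours clipped at -2 and 2. Boxed cells passed at an adjusted p under 0.05, and in the intervals from Day 2 onward the single boxed cell is the fall of Itga4 from Day 2 to Day 3.

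Itgb1, the beta chain that alpha 3, 4, 5, 6, 7, 9 and v can all pair with, changed little in its followed probe set, 1426918_at. Its arrays read 3889.5, 5105 and 4297 on Day -1, 4145, 4526 and 4189 on Day 0 and 6290.2, 4642 and 6651 on Day 0.25. All 3 of Day 0.25 lay above Day 0, a rise of 1.35-fold (log2 0.44 ± 0.17) close to the threshold, with an adjusted p of 0.0473. This call was lost without any 1 of the Day 0 arrays or without Day 0.25 replicate 1 or 3 (adjusted p between 0.0698 and 0.190). Day 3 had the highest level, 6403 ± 1037, and levels of neighbouring rank overlapped along the whole order. The net change to Day 5 was 0.23 ± 0.17, with a 95% interval of -0.13 to 0.59.

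The 3 tested probe sets of Itgb1 did not give the same net change. Probe set 1427771_x_at read 294, 359.6 and 279.9 on Day -1 and 1004, 984 and 628 on Day 5, a rise of 2.76-fold (log2 1.46 ± 0.21, adjusted p = 3.82e-06). Its groups did not overlap, and all 16 alternatives run for it kept the call, with log2 changes between 1.31 and 1.69. The followed probe set and 1452545_a_at changed by 0.23 ± 0.17 and 0.18 ± 0.17, and neither passed (adjusted p = 0.239 and 0.349). The 95% interval of 1427771_x_at, 1.02 to 1.90, lay above those of the other pair, whose upper ends were 0.59 and 0.53. An _x_at name marks a probe set in which some probes can bind other transcripts as well, and an _a_at name one for several transcripts of a gene. The followed probe set of Itgb5, 1456195_x_at, and its 1456133_x_at carry the _x_at name too. Which transcripts of Itgb1 each probe set reads was not analysed here. Into Day 0.25 all 3 rose, by 0.44 ± 0.17, 0.43 ± 0.17 and 0.78 ± 0.21 on the log2 scale. For 1452545_a_at this call was lost without the same arrays as for 1426918_at (adjusted p between 0.0724 and 0.172). From Day 1 to Day 2 the 2 that were not followed rose, with adjusted p-values of 0.0331 and 0.0453, but the arrays of 1452545_a_at overlapped. Both calls were lost without Day 1 replicate 1 or 2 or Day 2 replicate 1 or 3 (adjusted p between 0.0974 and 0.164), and that of 1427771_x_at also without Day 1 replicate 3 (0.0533).

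Itgb5, the beta chain of the vitronectin receptor alpha v beta 5, rose between Day -1 and Day 5 in all 4 of its probe sets. The followed probe set, 1456195_x_at, read 251, 355 and 344 on Day -1 and 454, 464 and 395 on Day 0. It read 617, 569.9 and 724 on Day 1 and 1213, 767 and 1059 on Day 2. All Day 2 arrays were above those of Day 1, a rise of 1.57-fold (log2 0.65 ± 0.25, adjusted p = 0.0385). That call was lost without Day 1 replicate 1 or 2 or without Day 2 replicate 1 or 3 (adjusted p between 0.0927 and 0.165). Of the other 3 probe sets, 1417533_a_at and 1456133_x_at passed in this interval (1.41-fold and 1.32-fold, adjusted p = 0.00528 and 0.0321), and 1417534_at did not (adjusted p = 0.0845). The call of 1456133_x_at was lost without the same 4 arrays as that of the followed probe set (adjusted p between 0.0668 and 0.143). The rise from Day -1 to Day 0 passed in the 3 that were not followed, by 1.68-fold to 1.83-fold, and missed the threshold in the followed one (log2 0.48 ± 0.25, adjusted p = 0.120), whose arrays did not overlap. From Day 0 to Day 0.25 the followed probe set changed by 0.55 ± 0.25 (adjusted p = 0.0802), and it passed without Day 0.25 replicate 2 (adjusted p = 0.0208). The net rise to Day 5 passed in all 4, at 2.35-fold to 2.78-fold, and was 2.46-fold in the followed one (log2 1.30 ± 0.25, adjusted p = 0.000102).

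**Figure D3:**
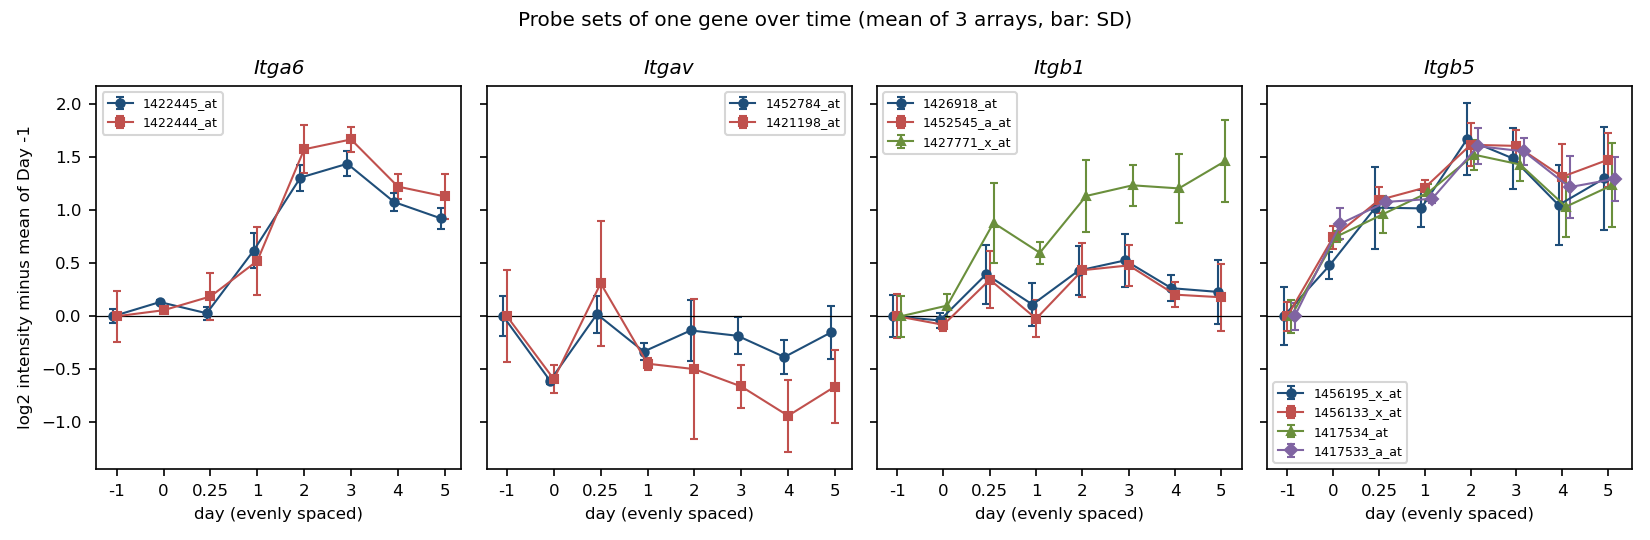
log2 intensity minus the Day -1 mean of the same probe set (vertical axis) over 8 time points (horizontal axis, days, evenly spaced), with points at the mean of 3 arrays and bars of 1 SD. The 4 probe sets of Itgb5 and the 2 of Itga6 run close together, while 1427771_x_at of Itgb1 stands at 1.46 on Day 5 and the other 2 at 0.23 and 0.18.

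Itgb1bp2 had the widest range of these genes, 331-fold between its lowest and highest levels. Its probe set was 1423238_at. Its arrays read 2.44, 2.34 and 2.40 on Day -1, under the median intensity of every array, and 98.4, 100.5 and 84.0 on Day 0. On Day 0.25 they were back at 16.6, 13.9 and 23.1, and on Day 1 they read 149, 209 and 243. Each of these neighbouring groups was apart from the next on all arrays, up, down and up again. The fall from Day 0 to Day 0.25 was 5.37-fold (log2 -2.43 ± 0.22, adjusted p = 7.18e-08) and the rise into Day 1 was 11.2-fold (log2 3.49 ± 0.22, adjusted p = 1.18e-09). Fold changes from readings this low depend on the lower end of the scale. With values below 50 raised to 50, the changes were 0.91 into Day 0, -0.91 into Day 0.25 and 1.97 into Day 1 on the log2 scale, and all 3 still passed. Day 2 read 683, 857 and 577, a rise of 3.55-fold over Day 1 (log2 1.83 ± 0.22, adjusted p = 2.93e-06). The highest level was 792 ± 78.8 on Day 3, which overlapped those of Days 2 and 4. By Day 5 the arrays read 523, 318 and 503, all under those of Day 4, but the change of -0.66 ± 0.22 did not pass (adjusted p = 0.106). From Day -1 to Day 5 the log2 change was 7.51 ± 0.22 as measured and 3.13 with the raised values.

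Around induction the called changes of these genes went in both directions, as did those over all tested probe sets. Into Day 0, 6 of the 17 probe sets rose (Itga4, Itga7, Itgb1bp2 and 3 of Itgb5) and 2 fell (Itga3 and Itgav), beside 23.3% of all tested probe sets that rose and 21.7% that fell. Into Day 0.25, 7 rose (Itga3, Itga4, both of Itgav and all 3 of Itgb1) and 1 fell (Itgb1bp2), beside 22.4% and 20.9%. Without Day 0 replicate 2 these 8 calls became 5, without the third Day 0 array 4, and also 4 when either Day 0.25 replicate 1 or 3 was left out. The shares over all tested probe sets without these arrays are not given beside them. The 2 that fell into Day 0 thus rose again within 6 hours of induction, and Itgb1bp2, which had risen, fell. Itga4 was called as rising in both intervals. By 1 probe set a gene, 3 of 9 rose and 2 fell into Day 0, and 4 rose and 1 fell into Day 0.25. These neighbouring intervals share the Day 0 arrays, so that an array reading low or high there moves both changes in opposite directions. Itga3 and Itgav read close to their Day -1 levels on Day 0.25, 107 ± 21.2 after 106 ± 19.6 and 1703 ± 198 after 1681 ± 216.

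From Day 0.25 to Day 1 only Itga4, Itga6 and Itgb1bp2 rose, 3 of 17 probe sets, and none fell, beside 11.6% and 15.4% of all. Without Day 0.25 replicate 2, 6 changes passed. Between Days 1 and 2 there were 10 rises among the 17 and no fall, beside 22.8% and 21.7%. They were both of Itga6, the single ones of Itga7 and Itgb1bp2, 1 of 2 of Itga5, 2 of 3 of Itgb1 and 3 of 4 of Itgb5. Leaving out replicate 1 of every time point reduced these 10 to 3, and Day 1 replicates 1 or 2 or Day 2 replicates 1 or 3 alone to 6. The shares given are those with all arrays. Shares over all tested probe sets without the arrays named are not given, so these shifts are not a result about the members. After Day 2 few changes passed. Between Days 2 and 3, 1 probe set fell and none rose, beside 2.96% and 3.23%. In the last 2 intervals none passed, beside 0.473% rising and 0.663% falling between Days 3 and 4, and 1.38% and 2.12% between Days 4 and 5. Probe sets of 1 gene measure the same RNA and are not separate evidence.

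**Figure D4:**
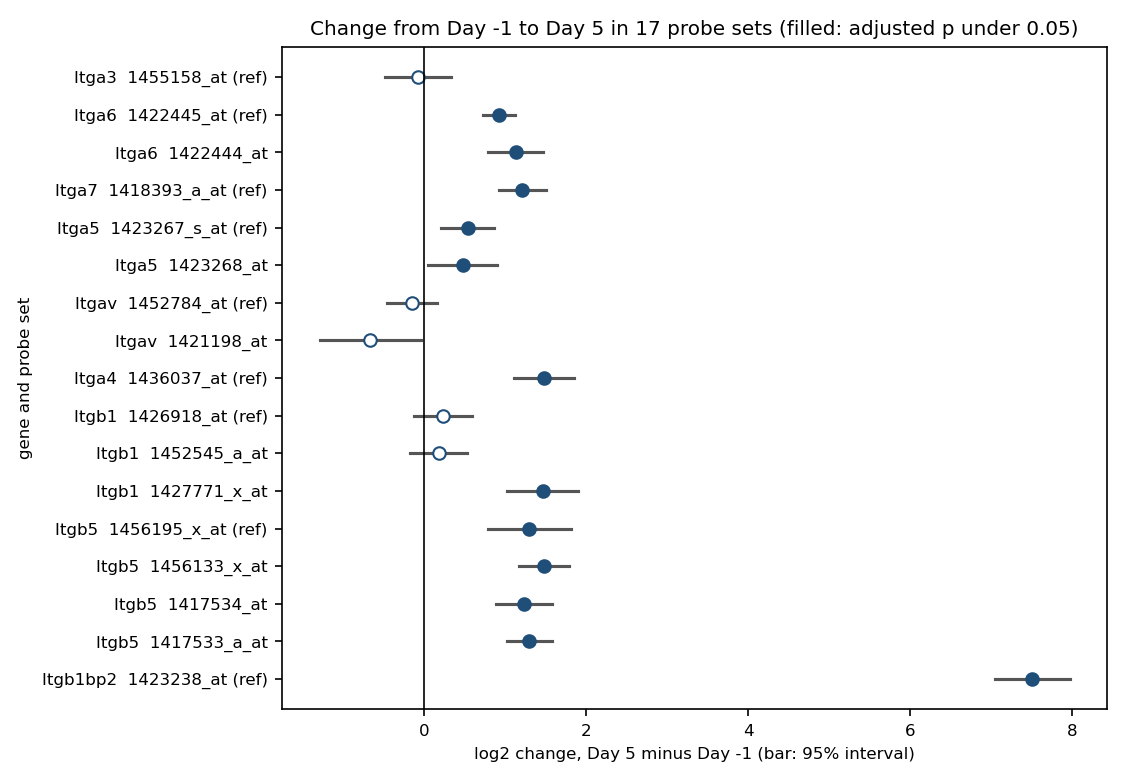
log2 change from Day -1 to Day 5 (horizontal axis) of the 17 tested probe sets (vertical axis, with the followed one of each gene marked as ref). Points are estimates with 95% intervals, filled points passed at an adjusted p under 0.05, and the 5 open ones are those of Itga3 and Itgav and 2 of Itgb1.

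Arrays of 1 time point tended to stand apart for many of these probe sets together. Day 2 replicate 2 was the lowest of its 3 arrays in 15 of the 17 and Day 3 replicate 1 in 15, while over all tested probe sets these arrays were lowest in 49.5% and 42.5%. Day -1 replicate 2 was the highest in 15 and Day 1 replicate 3 in 15, beside 44.7% and 40.6% over all. The part of this shared shift in the results was not tested. No 2 arrays held identical values, and log2 intensities of replicate arrays correlated with r from 0.966 to 0.996.

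Over the 8 means of log2 intensity, the other genes most like each member with a range of 2-fold or more were found among 3457 genes. The most similar to Itga7 were Neurl1a, Wtip and Synpo2, with r between 0.994 and 0.995. Itgb1bp2 was closest to Tmem140, Myl4 (an embryonic and atrial myosin light chain) and Gprc5c, with r between 0.995 and 0.996, and Itga6 to Plac8, Smg6 and Rreb1, with r between 0.985 and 0.991. Itgb5 was closest to Sema3d, Lima1 (an actin-binding LIM protein) and Rab3il1 (r between 0.961 and 0.966), and Itga4 to Cd200, Eva1b and Lsp1 (r between 0.914 and 0.963). Among the members, Itga7 and Itgb1bp2 had r = 0.961, Itga6 and Itga7 0.923, and Itga3 and Itgav 0.842. These are descriptions over 8 points that share arrays.

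The proteins that integrins bind outside the cell did not move one way. Of 31 matrix ligands listed, 22 were tested, and by Day 5 there were 9 higher and 7 lower than on Day -1, with a median log2 change of 0.28. Over all tested probe sets 31.9% were higher and 38.4% lower, with a median of -0.08. Those that rose with the lowest adjusted p were Postn, which encodes periostin (57.4 ± 5.78 to 936 ± 338, log2 3.97, adjusted p = 8.12e-11), and Nid2, a basement membrane nidogen (17.1 ± 5.86 to 1269 ± 548, log2 6.18, adjusted p = 1.77e-10). The corresponding falls were those of Lamb3, a chain of laminin 332 that alpha 3 and alpha 6 receptors bind (68.6 ± 12.02 to 3.89 ± 2.35, log2 -4.28, adjusted p = 9.83e-10), and Tnc, tenascin-C (379 ± 50.0 to 51.4 ± 7.53, log2 -2.88, adjusted p = 7.96e-09). The Day 5 level of Lamb3 was near the array medians, so that its fold depends on the lower end of the scale. Postn and Nid2 were under the level set for testing on Day -1, so the sizes of their rises are uncertain. Into Day 0, 9 ligands fell and 3 rose, with a median of -0.52, and into Day 0.25, 10 rose and none fell, with a median of 0.46, against medians of 0.00 and 0.03 over all tested probe sets. The shares over all were 23.3% rising and 21.7% falling into Day 0, and 22.4% and 20.9% into Day 0.25.

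Inside the cell, 35 of 44 genes of the integrin adhesion complex were tested, and 8 were higher and 18 lower on Day 5 than on Day -1, with a median of -0.30. Flnc, the filamin of muscle, rose (397 ± 79.1 to 2045 ± 242, log2 2.38, adjusted p = 3.83e-09), as did Sorbs2, an adaptor of the sorbin family (1232 ± 90.9 to 2179 ± 48.7, log2 0.82). Parva, which binds integrin-linked kinase, fell (641 ± 23.9 to 274 ± 24.9, log2 -1.23, adjusted p = 4.70e-09), and so did the tyrosine kinase Src (106 ± 26.1 to 22.9 ± 7.20, log2 -2.24). The Day 5 level of Src was under the level set for testing, so the size of its fall is uncertain. The shares, 8 and 18 of 35, stood beside the 31.9% and 38.4% of all tested probe sets that rose and fell.

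Among membrane partners and genes of integrin traffic, 22 of 25 were tested, and 7 rose and 8 fell over the same span, with a median of -0.15. These shares stood beside the same 31.9% and 38.4% of all. Cav3, the caveolin of muscle, read 2.53 ± 0.0203 on Day -1, at the lower end of the scale, and 244 ± 71.0 on Day 5 (adjusted p = 9.52e-13). Slc3a2, the CD98 heavy chain that binds beta 1 tails, rose (1485 ± 31.8 to 4376 ± 187, log2 1.56, adjusted p = 7.25e-12). Plaur, the urokinase receptor, fell (1244 ± 177 to 200.2 ± 33.4, log2 -2.64), as did the tetraspanin Cd9 (4008 ± 79.0 to 1939.8 ± 173, log2 -1.05).

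**Figure D5:**
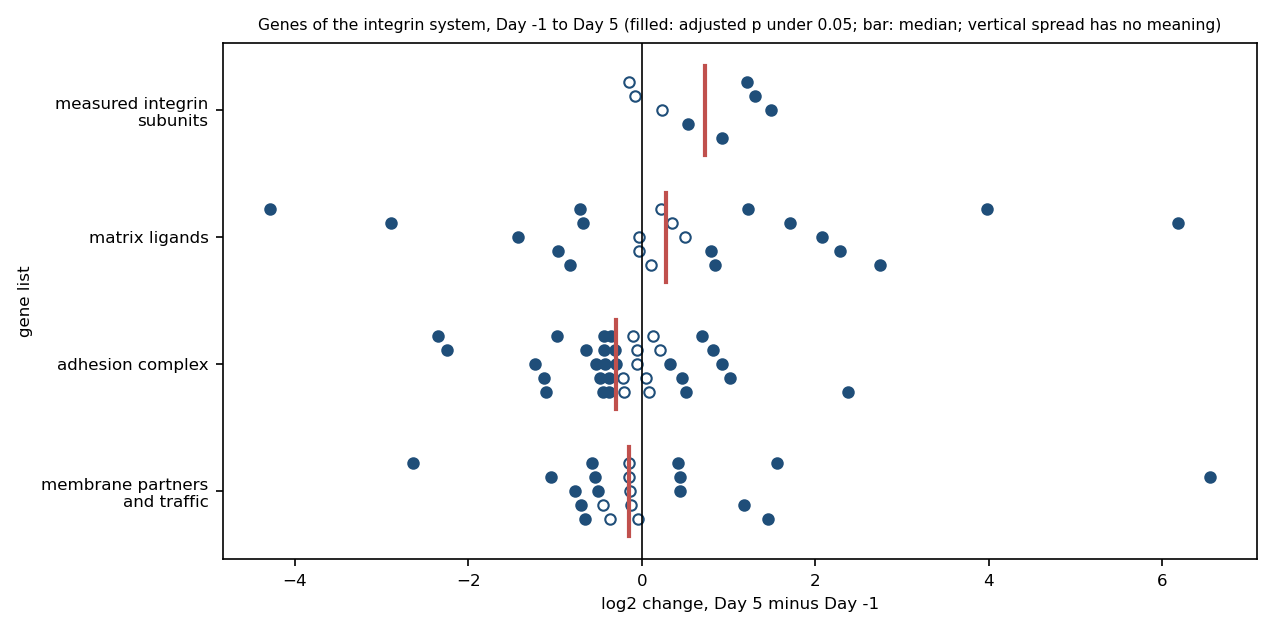
log2 change from Day -1 to Day 5 (horizontal axis) of each tested gene in 4 groups (vertical axis): the 8 followed integrin subunits and 3 lists of genes around them. Filled points passed at an adjusted p under 0.05 and the bar is the median of the group, 0.73 for the subunits, 0.28 for ligands, -0.30 for the adhesion complex and -0.15 for membrane partners.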

How the data were processed

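RNA of 24 C2C12 samples was hybridised to Affymetrix mouse arrays. By the methods, the authors computed the deposited linear intensity with GC-RMA and brought every array to the same 2% trimmed mean, 150, and these values were used as given. The submitters' processing notes also name MAS5, with no role stated. GC-RMA shrinks dim probe sets toward a common low value, so changes below a level of about 100 are uncertain.

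Groups came from the labels. After 64 control probe sets were left out, 13735 of 45037 had a level of at least 100. Their log2 intensities were fitted with limma 3.58.1 in R 4.3.3 (8 time points, moderated t and F), and p-values were adjusted by Benjamini and Hochberg. With 3 arrays a group, the smallest exact permutation p is 0.1. The fit was tested on simulated data. Precision is limited by the 3 arrays of each time point.

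The members and lists were chosen with earlier results of these data known. A gene is followed in its probe set of highest mean intensity, and up to 4 genes of a list are named, 2 that rose and 2 that fell, by lowest adjusted p. Alternatives were a replicate block, other level filters, quantile normalization, raised low values, a prior trend, 6-array fits, other thresholds, 1 probe set a gene, and leaving out arrays.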

Additional observations from a re-analysis of the deposited data

How the results depend on the processing

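Over 851 values of single probe sets under alternatives, 749 kept their direction and side of the threshold, 93 no longer passed, 7 newly passed and 2 changed sign. Both sign changes were in the uncalled net change of Itga3 (main -0.0783), which was 0.0678 without Day -1 replicate 2 and 0.0741 without Day 5 replicate 1, with a range of -0.31 to 0.07 over its alternatives. Of the members, 17 probe sets varied over the time course, or 9 genes by either choice of 1 probe set a gene. Counts of members that moved by over 1.5 times were as follows, and the cause was not tested. Stricter thresholds and fewer arrays can lower the counts over all tested probe sets too. Those counts are not given beside them, so the moves are not a result about these genes. With a fold change of at least 2, the 8 calls into Day 0 became 1, the 8 into Day 0.25 became 1, the 10 into Day 2 became 2 and the 1 into Day 3 became 0. At an adjusted p under 0.01, an alternative chosen after seeing the data, the calls became 4 into Day 0.25, 6 into Day 2 and 0 into Day 3. As genes by highest mean intensity, the calls into Days 0, 0.25 and 2 were 5 each, and the 12 between Day -1 and Day 5 became 6. As genes by highest absolute t there were 5 into Day 0.25, 6 into Day 2 and 7 between Day -1 and Day 5. The call into Day 3 was also lost, leaving 0, at a level of at least 200, at which Itga4 is not tested, and in a fit of only the 6 arrays compared. Leaving out arrays gave 2 to 9 calls into Day 0.25, 3 to 6 into Day 1, 3 to 12 into Day 2, 0 to 1 into Day 3 and 0 to 1 into Day 4, while 12 to 17 probe sets passed the F test. Replicate numbers did not pair the arrays: same-numbered arrays deviated with r between -0.514 and 0.555, and in 9 of 21 cases an array was closest to its own number. With the replicate block, 5 rather than 8 members passed into Day 0.25, and no other count of members moved by over 1.5 times. Dim probe sets limit what can be measured, and 17 of the members' 34 probe sets were not tested for this reason.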

Other observations

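In their brightest probe sets, none of the other integrin subunits reached the level set for testing. Of 18 such genes listed, 16 had a probe set, and 12 of these stayed under an intensity of 10 at every time point. The other 4 were Itgb3, Itgb6, Itgb7 and Itgb8, whose values are given as levels with no test, and they were singled out after their values were seen. Itgb7, the beta chain of leukocyte integrins, went from 67.6 ± 6.03 and 57.6 ± 10.6 on Days -1 and 0 to 10.8 ± 2.39 at 6 hours and 2.27 ± 0.0807 on Day 5. It stayed below a level of 100, as did all 6 leukocyte markers. The summed intensity of those markers was 15.8 to 17.4 on Day -1 and 15.5 to 18.0 on Day 5. Itgb8, a partner of alpha v, read 38.1 ± 6.34 and 19.2 ± 5.34 on Days -1 and 0. Its later levels were 79.7 ± 20.1 at 6 hours and 93.7 ± 32.9 on Day 5. Its lowest level was that of Day 0, as in the followed probe sets of Itga3 and Itgav. The second tested Itgav probe set was lowest on Day 4, and the untested ones of Itga3 on Days 2 and 5. Itgb6, another partner of alpha v, read 3.90 ± 0.267 on Day -1 and 36.8 ± 5.09 on Day 3. Itgb3, a further partner of alpha v, read 2.13 ± 0.180 on Day 0 and 16.6 ± 11.8 on Day 0.25, with a wide spread between arrays there, and 2.87 ± 0.833 on Day 1.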
